A study of Mus musculus with 3 samples.

Results

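Interferon-responding macrophage nuclei were picked out of single-nucleus RNA profiles of mouse heart by the RNA molecules they held. A nucleus was a member with at least 2 molecules over 6 macrophage genes (Csf1r, Mrc1, Adgre1, F13a1, Mertk and Dock2) and at least 2 over 6 interferon-induced genes (Ifit2, Ifit3, Irf7, Cmpk2, Zbp1 and Oasl2). It could hold at most 1 molecule over the endothelial and fibroblast genes Pecam1, Cdh5, Pdgfra and Dcn, and less than 3% of its molecules could come from the cardiomyocyte transcripts Ttn, Ryr2, Myh6 and Mhrt. Molecules were counted as unique molecular identifiers (UMIs), and nuclei with fewer than 300 detected genes or with more than 10% mitochondrial UMIs were not used. The rule found 158 members among 20733 nuclei within the last 2 limits. They were compared with the 1689 nuclei that met every macrophage condition but held 0 or 1 interferon UMI, called other macrophage nuclei below. Members and others together are the 1847 macrophage-gated nuclei.

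Heart tissue was taken 2 weeks after surgery, and each of 3 groups gave 1 library. Sham-NS mice had sham surgery and received NS, MI-NS mice had a myocardial infarction and received NS, and MI-DAPA mice had an infarction and received dapagliflozin, an inhibitor of the renal glucose transporter SGLT2. The labels do not say what NS stands for, and strain, sex, age, dose and the number of animals in a library are not given in the sources used here. With 1 library per group, treatment cannot be told apart from the animal, the piece of tissue or the library, so no test was possible. Bracketed values are 95% intervals for counting error only. Those on molecule counts treat each molecule as independent and take no account of how molecules cluster in nuclei, so they can be too narrow.

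Type I interferons bind the receptor IFNAR, whose kinases JAK1 and TYK2 pass the signal on by phosphorylation. A complex that includes STAT2 and IRF9 then binds a promoter element and switches on the interferon-stimulated genes, many of which block viral replication. Irf7 is itself such a gene and amplifies the response. In infarcted heart, macrophages are known to start this programme when DNA from dying cells is sensed through cGAS, STING and IRF3.

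Among the 6 genes of the rule, Ifit2 and Ifit3 encode proteins that bind viral RNA, and Oasl2 belongs to the oligoadenylate synthetase-like proteins. Cmpk2 is a mitochondrial nucleotide kinase and Zbp1 a sensor of Z-form nucleic acid. Ifit2 (chr19:34550694-34576419, plus strand) and Ifit3 (chr19:34583531-34588731, plus strand) are neighbours in mm10. Irf7 lies at chr7:141262706-141266481 (minus strand), Cmpk2 at chr12:26469204-26479837 (plus strand), Zbp1 at chr2:173206612-173218923 (minus strand) and Oasl2 at chr5:114896936-114912234 (plus strand), by the GENCODE annotation.

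The core of the promoter element was searched as GAAANNGAAA on either strand of RefSeq promoters (GRCm38.p6, 250 bases before to 50 after each start site). It was present in 3.99% of 27025 genes with a promoter in the table and in 43 of the 88 interferon genes outside the rule that had one (48.9%). Of the rule genes, 5 had a promoter there and Ifit3 alone held the element. Of 7 interferon genes that led the members and had a promoter, 4 held it. Of 5 other leading genes with a promoter 1 held it, Ifih1, with its match after the start site. The promoters of Ifit3 and of the 4 interferon genes are shown because their genes define or lead the members. The first is given for 250 bases and the others for the last 100 before the start site, each 5′ to 3′ on the strand of the gene, with the matches in capitals.
Ifit3, chr19:34583279-34583528, plus strand: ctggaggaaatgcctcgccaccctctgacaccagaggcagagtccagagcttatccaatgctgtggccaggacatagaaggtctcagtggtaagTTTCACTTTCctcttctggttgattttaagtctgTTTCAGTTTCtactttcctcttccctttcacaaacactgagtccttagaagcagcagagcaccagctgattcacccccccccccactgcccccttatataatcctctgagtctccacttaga
Trim30d, chr7:104507850-104507949, minus strand: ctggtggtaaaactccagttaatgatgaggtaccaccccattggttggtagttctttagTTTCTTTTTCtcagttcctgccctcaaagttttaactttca
Irgm1, chr11:48871421-48871520, minus strand: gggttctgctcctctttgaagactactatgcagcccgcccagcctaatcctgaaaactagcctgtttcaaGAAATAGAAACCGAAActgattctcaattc
Ifi213, chr1:173599273-173599372, minus strand: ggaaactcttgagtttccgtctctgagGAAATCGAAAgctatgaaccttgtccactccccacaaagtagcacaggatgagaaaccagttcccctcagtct
Ifi211, chr1:173913047-173913146, minus strand: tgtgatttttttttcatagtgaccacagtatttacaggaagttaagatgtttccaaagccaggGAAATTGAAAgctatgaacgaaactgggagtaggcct
Both matches in Ifit3, starting 156 and 122 bases before the start site, and the match in Trim30d, 41 bases before it, lie on the strand opposite the gene and therefore read as the reverse complement. The 2 matches in Irgm1 begin 30 and 24 bases before the start site and overlap by 4 bases. By the GENCODE annotation Irgm1 starts further upstream, at base 48871683, so that both of its matches would lie after that start. The match begins 73 bases before the start site in Ifi213 and 37 bases before it in Ifi211. A match is a description of letters, and no binding was measured here.

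The Sham-NS library held 13873275 UMIs in 9744 barcodes, the MI-NS library 10113430 in 7725 and the MI-DAPA library 8871086 in 6354, with at least 500 UMIs in every barcode. Pairs of libraries shared 13 to 20 barcodes, none of them among macrophage-gated nuclei. Members held 75402, 67659 and 12688 UMIs in all. Macrophage-gated nuclei were shallow, with a median of 718 UMIs for Sham-NS, 739.5 for MI-NS and 652.5 for MI-DAPA. Within each library members were deeper than the others, at a median of 878 against 709, 816 against 735.5 and 797.5 against 649.5 UMIs.

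Sham-NS gave 76 members of 849 macrophage-gated nuclei, or 8.95% (7.12 to 11.1). In MI-NS 66 of 630 were members, or 10.5% (8.20 to 13.1). In MI-DAPA 16 of 368 were members, or 4.35% (2.51 to 6.96). The share was thus 0.415 times as large in the MI-DAPA as in the MI-NS library (interval 0.244 to 0.706), while MI-NS and Sham-NS had overlapping intervals. Macrophage-gated nuclei themselves were 10.2%, 8.92% and 6.85% of the kept nuclei of the 3 libraries.

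The size of that difference depended on the depth compared. When every nucleus was thinned to 600 UMIs, and shallower ones were left out, 38 of 623 nuclei were members in Sham-NS (6.10%, 4.35 to 8.28). MI-NS then had 34 of 501 (6.79%, 4.75 to 9.35) and MI-DAPA 11 of 226 (4.87%, 2.45 to 8.54). The 3 intervals overlapped, and the log2 ratio of MI-DAPA to MI-NS was -0.48 in place of -1.27. At 1000 UMIs fewer nuclei were left, and members were 21 of 181 in Sham-NS (11.6%), 22 of 164 in MI-NS (13.4%) and only 2 of 54 for MI-DAPA (3.70%). The log2 ratio of MI-DAPA to MI-NS was then -1.86, so the ratio moved in opposite directions at the 2 depths. The order of the libraries was the same at both.

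The interferon criterion was met outside macrophages too. At least 2 UMIs over the 6 interferon genes were found in 7.10%, 13.3% and 3.19% of fibroblast-gated nuclei in the same order of libraries, whose median depths were 819, 1085 and 872 UMIs. Among endothelial-gated nuclei the shares were 9.61%, 12.6% and 6.45%, at 796.5, 869.5 and 729.5 UMIs. Cardiomyocyte-rich nuclei, which were far deeper at 2273, 1994.5 and 2304.5 UMIs, met it in 1.10%, 2.79% and 0.790%. At 600 UMIs per nucleus the share was 3.06%, 4.87% and 1.24% in fibroblast-gated and 5.38%, 5.52% and 5.06% in endothelial-gated nuclei. In cardiomyocyte-rich nuclei it was then 0.321%, 0.550% and 0.124%, so that macrophage-gated nuclei lay above this level and close to endothelial-gated nuclei. The lowest share of each class, endothelial-gated nuclei included, was in MI-DAPA both before and after thinning.

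**Figure D1:**
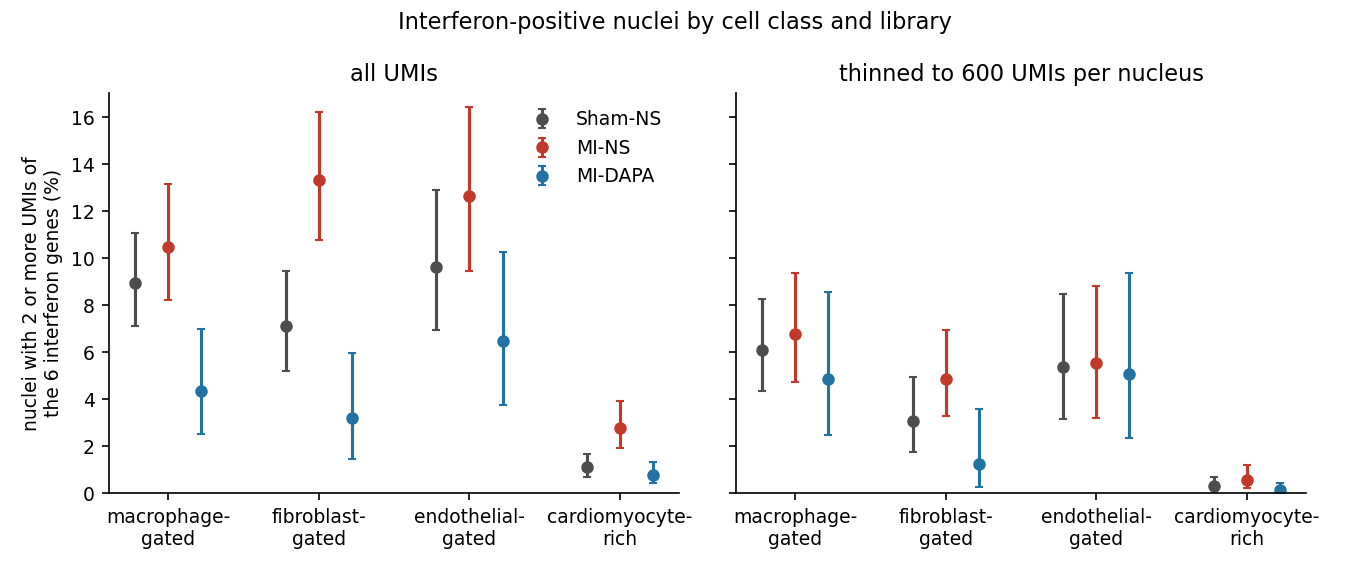
Share of nuclei with at least 2 UMIs over the 6 interferon genes of the rule (y axis, percent) in 4 classes of nuclei of the 3 libraries, with 95% exact binomial intervals, as deposited (left) and thinned to 600 UMIs (right). The share of macrophage-gated nuclei was 8.95% in Sham-NS, 10.5% in MI-NS and 4.35% for MI-DAPA as deposited, and 6.10%, 6.79% and 4.87% after thinning to 600 UMIs.

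Many members stood close to the threshold. Of the 158, 76 held exactly 2 interferon UMIs, and a further 300 macrophage-gated nuclei held 1. At the other limits, 42 members had exactly 2 macrophage UMIs while 87 nuclei were outside with 1, and 31 members had 1 excluded-gene UMI while 14 nuclei were outside with 2. A single interferon gene carried 53 members, of which 34 rested on Oasl2 and 11 on Irf7. Another 69 members held 2 of the genes, 24 held 3 and 12 held 4 or more, with 5 as the most. The highest interferon count of a nucleus was 11 UMIs for Sham-NS, 14 for MI-NS and 7 for MI-DAPA. That Sham-NS nucleus spread its 11 UMIs over 5 genes and had 860 UMIs in all.

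Oasl2 was the gene found in most members, with a UMI in 114 (72.2%). Its counts were 95, 87 and 31 UMIs in the Sham-NS, MI-NS and MI-DAPA members, or 1259.9, 1286 and 2443 counts per 1000000 UMIs of the members (CPM). Irf7 was detected in 63 members, with 46, 40 and 7 UMIs (610.1, 591 and 552 CPM). Irf7 and Oasl2 occurred together in 36 members. Ifit3 had 31, 27 and 9 UMIs in 42 members, Zbp1 had 17, 32 and 5 in 40, Ifit2 had 28, 17 and 2 in 34, and Cmpk2 had 11, 12 and 2 in 21. Ifit3 reads can also match its near copy Ifit3b and Oasl2 reads its relative Oasl1, and how such reads were assigned is not given in the sources used here. All these counts follow from the choice of members and are a description. Among the macrophage genes of the rule, the mannose receptor gene Mrc1 was detected in 72.2% of members and 69.9% of others. The coagulation factor gene F13a1 was found in 63.3% and 58.3%, and Csf1r, the receptor for the growth factor CSF1, in 55.1% and 54.2%.

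Macrophage markers that the rule did not use were read as a check of the label. The 17 genes, which include C1qa, Cd68, Lyz2 and Ptprc, summed to 4522 CPM in members and 4592 in others of Sham-NS, 5897 and 5538 in MI-NS, and 3468 and 3738 in MI-DAPA. In kept nuclei without a macrophage-rule UMI the sums were 149, 344 and 93 CPM. Members thus carried these markers at the level of other macrophage nuclei. The 14 genes of the cardiomyocyte list summed to 5902, 3473 and 6857 CPM in members and 6801, 4119 and 6429 in others. In kept nuclei without a macrophage-rule UMI that list summed to 114521, 67353 and 151821 CPM. At least 1 UMI of it was held by 100%, 95.5% and 100% of members. Of 8 further interferon markers 6 were used, and at least 1 UMI over Ifit1, Isg15, Rsad2, Ifi44, Ifi204 and Usp18 was present in 31 of 76 members of Sham-NS (40.8%), 33 of 66 of MI-NS (50%) and 7 of 16 of MI-DAPA (43.8%). Other macrophage nuclei had one in 22.3%, 23.4% and 17%. With all nuclei at 600 UMIs the shares were 30.8%, 41.0% and 41.7% in members and 17.6%, 16.8% and 14.0% in others. Cardiomyocyte-rich nuclei had 0.963%, 1.47% and 0.865% at that depth, and 4.0%, 4.77% and 2.86% unthinned.

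The level of the list of other interferon genes was higher in nuclei with more rule UMIs. This list of 112 genes, made up of receptors and signalling genes, antiviral effectors, the IFI200 family and the interferon-induced GTPases, shares no gene with the rule. In Sham-NS it summed to 15537, 18494, 23259 and 44266 CPM in macrophage-gated nuclei with 0, 1, 2 to 3 and 4 or more rule UMIs. The MI-NS sums were 12956, 14460, 21833 and 37808, and the MI-DAPA sums 11305, 15058, 24302 and 42059. The highest class held 16, 17 and 6 nuclei. In each library the level was higher in each class than in the one before. Nuclei with 1 rule UMI, which were not members, already lay above those with 0. The classes were cut on genes co-induced with this list, so the rise is a description and nothing is read from it. The 6 markers outside the rule, which gave far fewer UMIs, were not higher at each step in each library. They had 321, 516, 627 and 1888 CPM in Sham-NS and 293, 312, 519.8 and 2003 in MI-DAPA, but 385, 339, 678 and 2629 in MI-NS, where the level at 1 rule UMI lay within the interval of that at 0.

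**Figure D2:**
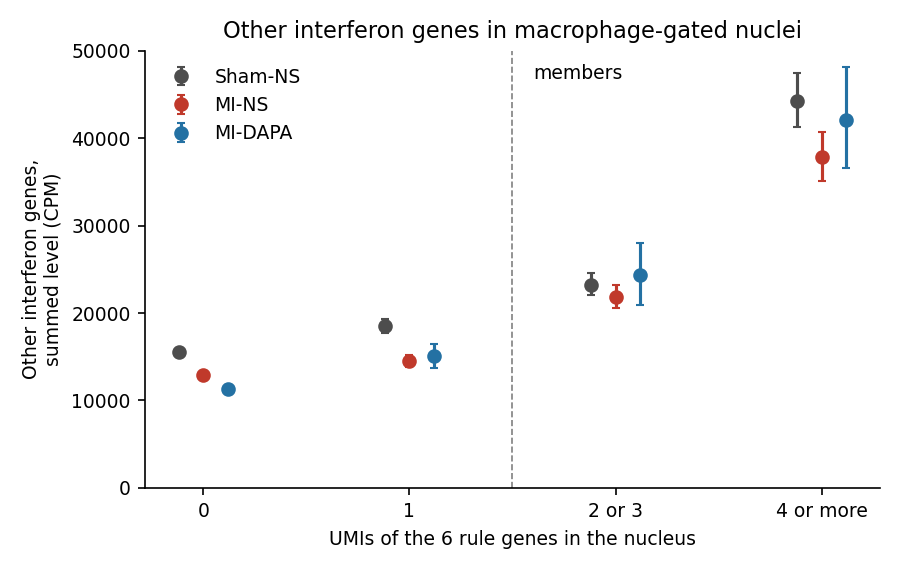
Summed level of the 112 interferon genes outside the rule (y axis, CPM) in macrophage-gated nuclei grouped by their UMIs over the 6 rule genes (x axis), 1 point per library and class with its 95% Poisson interval. Members are to the right of the dashed line. The level went from 15537 to 44266 CPM in Sham-NS, from 12956 to 37808 in MI-NS and from 11305 to 42059 in MI-DAPA.

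The list was also read in single nuclei. The 112 genes took a median of 2.39% of the UMIs of a Sham-NS member (range 0.294 to 12), 2.44% in MI-NS (0.761 to 8.98) and 2.59% in MI-DAPA (1.10 to 9.06). Other macrophage nuclei had medians of 1.55%, 1.27% and 1.09%, and reached at most 6.47%, 5.60% and 3.96%. The ranges overlapped. Of the members, 62 of 76, 60 of 66 and 16 of 16 lay above the median of the others in their library. The members were chosen on genes co-induced with this list, and nuclei of 1 library are not replicates, so nothing is read from these counts. The Sham-NS nucleus with 11 rule UMIs held 103 UMIs of the 112 genes, and a MI-NS nucleus with 11 rule UMIs held 6 of Rsad2, the gene of the antiviral protein viperin, and 68 of the whole list.

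A gene was called measurable where at least 5 of its UMIs would fall in members by their share of all UMIs, and called at a 2-fold difference. Over all measurable genes, 3.61% of 3184 in Sham-NS were 2-fold or more higher in members. The shares were 3.77% of 3022 for MI-NS and 4.87% of 308 for MI-DAPA, and 5.12%, 4.7% and 7.47% of genes were that much lower. In the list of 112, 24 of 63 measurable genes were 2-fold or more higher in Sham-NS, as were 24 of 60 in MI-NS, and 7 of 7 were in MI-DAPA. The median log2 ratio of those genes was 0.81, 0.86 and 1.39, beside 0.01, 0.03 and -0.01 over all measurable genes. The members were chosen on co-induced genes of the same nuclei, so nothing is read from these counts. The sums were 28275 CPM in members against 16109 in others of Sham-NS, 26323 against 13310 in MI-NS, and 31289 against 11765 in MI-DAPA. The log2 ratios were 0.81 (0.74 to 0.88), 0.98 (0.91 to 1.06) and 1.41 (1.26 to 1.56).

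Across the 3 libraries, 20 of 3382 genes outside the rule (0.591%) were 2-fold or more higher in members in each library, and 5 (0.148%) had a ratio that much lower in each, counted with the 0.5 UMI added to both sides. Of the 20, 14 were in the list of 112, and so were 7 of the 10 with the largest mean log2 ratio. First was Phf11d, with 22 UMIs in members and 44 in others of Sham-NS, 13 and 29 in MI-NS, and 4 and 13 in MI-DAPA. Its log2 ratios were 2.10, 1.77 and 2.78, with a mean of 2.21 (chr14:59347407-59365470). Phf11d has near copies, among which reads may have been split. Iigp1, an immunity-related GTPase that attacks the vacuoles of intracellular parasites, had log2 ratios of 1.32, 1.49 and 2.98. The 7 Iigp1 UMIs of the MI-DAPA members came from 3 nuclei.

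Ifih1, which encodes the double-stranded RNA sensor MDA5, came next, with 12, 10 and 7 UMIs in members against 50, 26 and 17 in others. Its log2 ratios were 1.07 (-0.02 to 1.96), 1.56 (0.30 to 2.61) and 3.14 (1.57 to 4.43). The best-sampled of the leaders was Parp14 (chr16:35832874-35871544), a poly(ADP-ribose) polymerase family member of the interferon response. Its level was 1645 CPM in members against 642 in others of Sham-NS, 1212 against 396 in MI-NS, and 1419 against 364 in MI-DAPA. In Sham-NS 52 of 76 members held a Parp14 UMI, in MI-NS 37 of 66 and in MI-DAPA 9 of 16. The log2 ratios were 1.36 (1.06 to 1.65), 1.62 (1.23 to 1.99) and 1.99 (1.15 to 2.70), so the intervals lay above 0 in each library. Its partner Parp9 had 1.15, 1.64 and 1.80.

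Gbp9, a guanylate binding protein gene, had 36, 15 and 3 UMIs in members and log2 ratios of 1.51, 1.96 and 1.68. In MI-DAPA, with 3 UMIs, the interval ran from -0.90 to 3.22. Trim30d, of a family of ubiquitin ligases whose near copies may share reads, had 1.43, 1.44 and 1.96. Irgm1, a regulator of the immunity-related GTPases and of autophagy, had 1.64, 1.01 and 1.96. Both carry the promoter element shown above. Rnf213, a giant ubiquitin ligase with antimicrobial activity, came eleventh in the order, with 113, 57 and 27 UMIs in members and log2 ratios of 1.18 (0.87 to 1.48), 1.10 (0.64 to 1.52) and 2.28 (1.60 to 2.87).

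**Figure D3:**
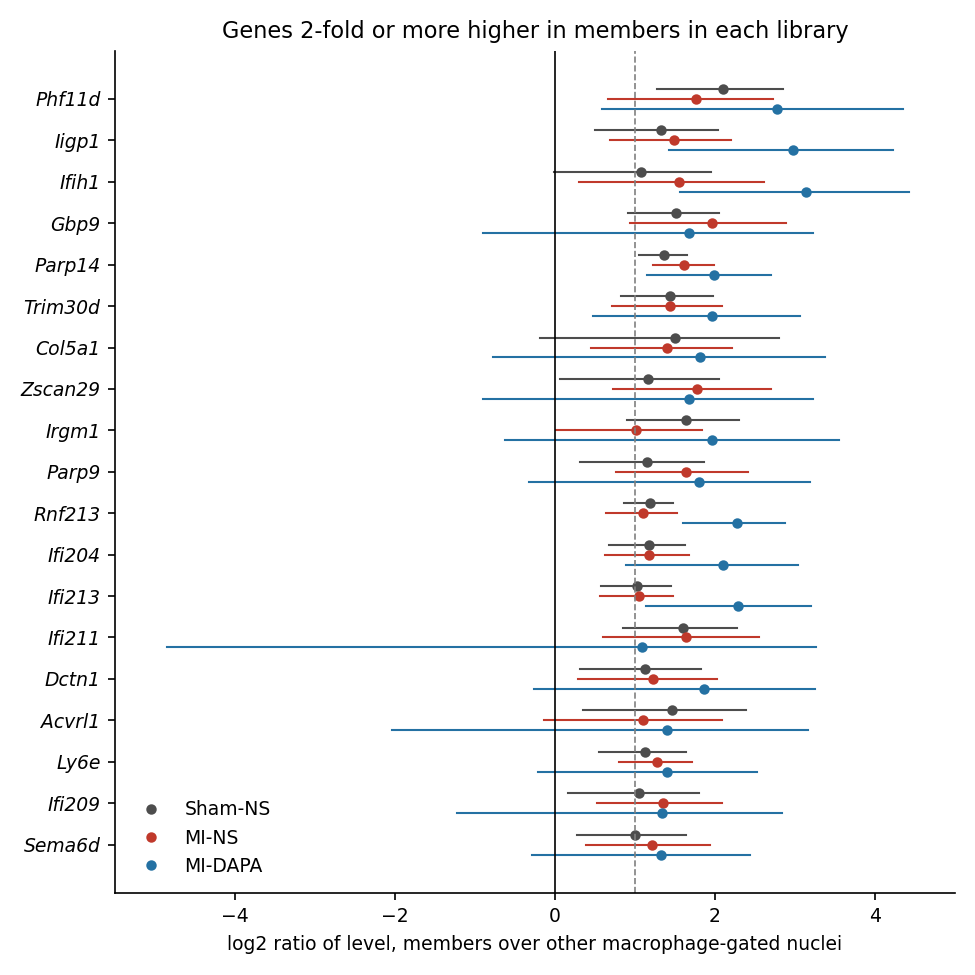
Log2 ratio of CPM in members over other macrophage nuclei (x axis) for 19 of the 20 genes that were 2-fold or more higher in members in each library, 1 point per library with its 95% counting interval. The means ran from 2.21 for Phf11d to 1.18 for Sema6d, and the MI-DAPA intervals, from 16 members, were the widest for most genes.

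The leaders outside the interferon list were Ifih1, Col5a1, Zscan29, Dctn1, Acvrl1 and Sema6d. Ifih1 belonged to the separate sensing list. Col5a1, a collagen chain made by fibroblasts, had 6, 16 and 3 UMIs in members against 19, 46 and 20 in others. Acvrl1, an endothelial receptor of the BMP family, had 12, 10 and 2 against 38, 36 and 19. The axon-guidance gene Sema6d had 24, 20 and 6 against 103, 65 and 53. Beside these genes stand the markers of other cells. The 10 endothelial markers outside the rule summed to 1843 CPM in members and 1296 in others of Sham-NS, 1359.8 and 852 in MI-NS, and 1261 and 1108 in MI-DAPA. Their log2 ratios were 0.51 (0.24 to 0.77), 0.68 (0.33 to 1.0) and 0.19 (-0.64 to 0.91). The 10 fibroblast markers outside the rule summed to 928 and 1057, 2468 and 2276, and 1182 and 1361 CPM, with log2 ratios of -0.19 (-0.56 to 0.17), 0.12 (-0.13 to 0.35) and -0.20 (-1.06 to 0.54). Endothelial markers were higher in members with an interval above 0 in both NS libraries. The interval included 0 in MI-DAPA and for fibroblast markers in each library. By nuclei, a UMI of the 12-gene endothelial list, rule genes included, was held by 44.7% of members and 34.9% of others in Sham-NS. The shares were 36.4% and 30.0% in MI-NS and 37.5% and 33.2% in MI-DAPA, and members were deeper. The part of endothelial cells and fibroblasts in the result was not tested. The endothelial receptor gene Tie1 had log2 ratios of 0.84, 1.68 and 1.44, and Flt1, a VEGF receptor gene, 0.71, 0.83 and 0.80. These are single genes and do not stand for the whole list. In MI-DAPA members 7 of the 12 endothelial genes, rule genes included, had a UMI, with 18 UMIs in all.

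On the low side, the 2 genes with UMIs in at least 5 members were Atp5b, a subunit of the mitochondrial ATP synthase, and Smc3, a subunit of cohesin. Atp5b had 5, 5 and 0 UMIs in members against 99, 83 and 45 in others, and Smc3 had 5, 2 and 0 against 109, 44 and 34. The 0 in MI-DAPA gives no fold, since 3 UMIs in those members would already lie above the level of the others, so for both genes the lower ratio in MI-DAPA rests on the 0.5 UMI added. The median mitochondrial share was lower in members than in others, at 3.05% against 3.85%, 1.51% against 1.66% and 2.78% against 3.02%. In summed UMIs the share was 3.45% against 3.96%, 1.95% against 1.75% and 3.11% against 3.20%, so it was higher in MI-NS members.

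The 18 genes of interferon receptors and signalling had summed log2 ratios of 0.35 (0.14 to 0.55), 0.64 (0.43 to 0.84) and 0.43 (-0.08 to 0.90). Of 14 measurable genes, 13 had a mean log2 ratio above 0, where the median over all measurable genes was 0.04. Stat2, a transcription factor of the interferon complex, reached 743 CPM in Sham-NS members, 990 in MI-NS and 473 in MI-DAPA, beside 494, 277 and 276 in others. The log2 ratio of Stat2 was 1.85 (1.40 to 2.27) in MI-NS but 0.60 (0.15 to 1.00) in Sham-NS. These intervals cover counting error only, and the difference between the libraries was not tested. Irf9 had 0.69, 0.15 and 1.60 with intervals that included 0 in each library. The receptor gene Ifnar1 had 19, 14 and 2 UMIs in members and log2 ratios of 0.25, 0.32 and -0.21. The kinase genes Tyk2 (0.09, 0.69 and 0.74) and Jak1 (0.52, 0.50 and -0.71) had intervals that included 0 in each library as well.

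Transcripts of interferon itself were hardly detected at this depth. Over 11 interferon genes the members held 1 UMI in all, of Ifnb1 in 1 MI-DAPA nucleus, and the others held 0. Among the sensors, the 20 genes of the list had summed log2 ratios of 0.41 (0.18 to 0.63), 0.44 (0.20 to 0.67) and 0.96 (0.48 to 1.41). Ddx58, which encodes the RNA sensor RIG-I, had 17, 16 and 5 UMIs in members and ratios of 0.85, 1.49 and 2.04. Cgas had 5 UMIs in members against 45 in others of Sham-NS, 7 against 12 in MI-NS and 5 against 7 in MI-DAPA. These gave log2 ratios of 0.04 (-1.77 to 1.24), 2.16 (0.53 to 3.58) and 3.91 (1.88 to 5.75). The Cgas UMIs came from 3, 4 and 3 members. STING, listed as Tmem173, had 7, 4 and 0 UMIs in members and 38, 21 and 21 in others.

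The antiviral effectors were the largest group. Their 64 genes summed to 15132 CPM in members against 8018 in others of Sham-NS, 14943 against 6996 in MI-NS and 16630 against 5651 in MI-DAPA. The log2 ratios were 0.92 (0.82 to 1.01), 1.09 (0.99 to 1.2) and 1.56 (1.34 to 1.77). Of the measurable genes 33 of 34, 33 of 34 and 4 of 4 were higher in members. Over all measurable genes the median log2 ratios were 0.01, 0.03 and -0.01. The members were chosen on co-induced genes, so nothing is read from such counts. Rsad2 had 6, 21 and 2 UMIs in members against 23, 17 and 12 in others, with log2 ratios of 1.23 (-0.44 to 2.48), 3.19 (2.20 to 4.21) and 2.04 (-1.42 to 3.94). Samhd1, which depletes the nucleotides that viruses need, had 41, 44 and 6 UMIs and log2 ratios of 0.88, 0.91 and 1.35.

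The IFI200 family, a cluster on chromosome 1 that includes DNA sensors and whose near copies may share reads, had summed log2 ratios of 0.66 (0.52 to 0.79), 0.91 (0.75 to 1.07) and 1.45 (1.15 to 1.74). All 7 measurable members of the family were higher in both NS libraries, and so were 3 of 3 in MI-DAPA. As for the antiviral effectors, nothing is read from these counts. Ifi204 had 48, 41 and 10 UMIs in members against 182, 136 and 50 in others, with log2 ratios of 1.17, 1.18 and 2.10. The guanylate binding proteins and immunity-related GTPases had summed log2 ratios of 1.27 (1.06 to 1.48), 1.08 (0.79 to 1.37) and 2.03 (1.5 to 2.53). These GTPases are induced by interferon gamma as well as by type I interferon. No Ifng UMI was found in macrophage-gated nuclei, and the T and NK cell markers had 0 UMIs in the members of each library. Kept nuclei without a macrophage-rule UMI held 176, 261 and 107 UMIs of these markers in Sham-NS, MI-NS and MI-DAPA. Which interferon induced the GTPases was not tested.

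**Figure D4:**
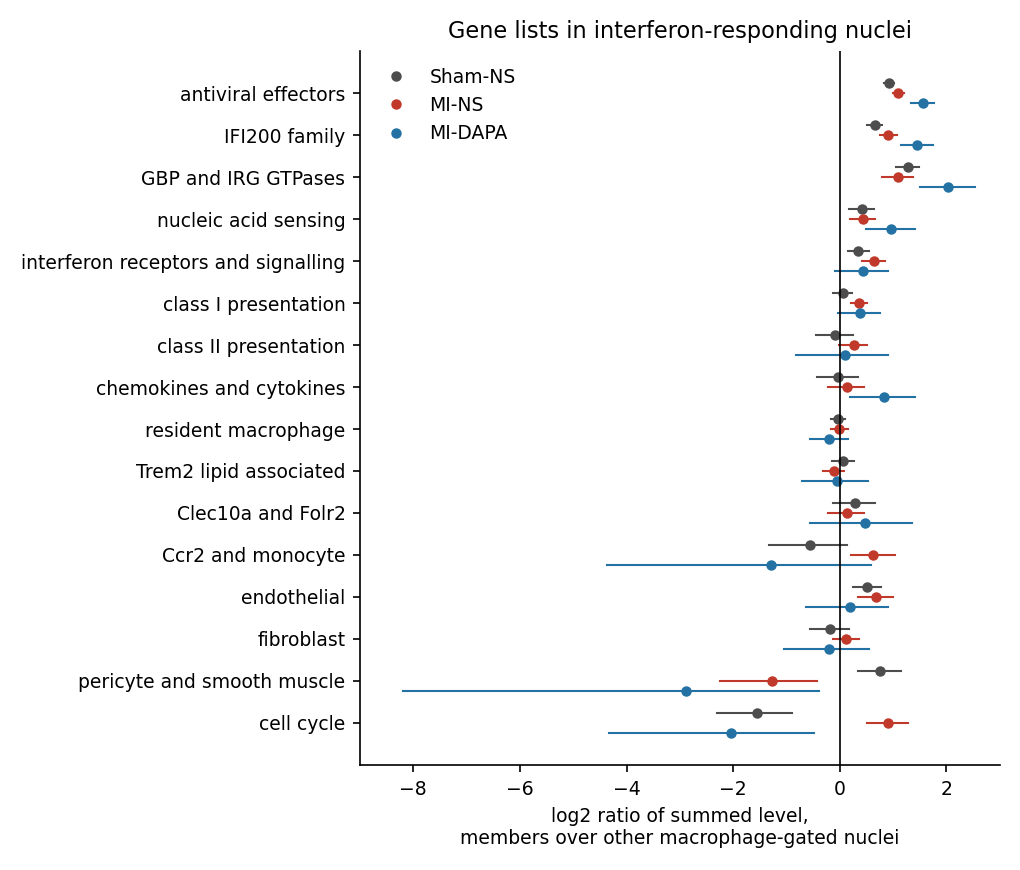
Summed log2 ratio of members over other macrophage nuclei (x axis) for gene lists, 1 point per library with its 95% counting interval. Antiviral, IFI200 and GTPase lists lay above 0 in the 3 libraries, while the resident and Trem2 lists lay near 0 (-0.03, -0.01 and -0.19, and 0.06, -0.12 and -0.06).

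Class I genes, which are interferon-inducible, had summed log2 ratios of 0.05 (-0.12 to 0.22), 0.36 (0.21 to 0.51) and 0.37 (-0.04 to 0.76). Within that list the non-classical gene H2-T24 had 15, 17 and 5 UMIs in members and ratios of 0.49, 1.55 and 2.69. Class II genes had -0.09, 0.26 and 0.10, with intervals that included 0. The 12 resident macrophage genes outside the rule had -0.03, -0.01 and -0.19, and the 18 genes of the Trem2 lipid-associated list 0.06, -0.12 and -0.06. The 17 genes of the Ccr2 and monocyte list had -0.55 (-1.33 to 0.14), 0.63 (0.21 to 1.03) and -1.30 (-4.36 to 0.59), from 18, 61 and 2 UMIs in members. In MI-NS that was 902 CPM in members against 583 in others, and in Sham-NS 239 against 350. This list was higher in members in MI-NS, with an interval above 0, and lower in the other libraries, with intervals that included 0. Cxcl10, a chemokine that interferon induces, had 4 UMIs in 2 Sham-NS members and 4 in 2 MI-NS members, against 0 UMIs in the others of those libraries. In MI-DAPA the members held 0 Cxcl10 UMIs and the others 2.

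Members carried markers of more than 1 macrophage subset. Cd163, a scavenger receptor of resident macrophages, had a UMI in 51.3% of Sham-NS members, 24.2% of MI-NS members and 25% of MI-DAPA members. The others had 42.6%, 19.0% and 23%, and cardiomyocyte-rich nuclei 0.999%, 0.180% and 0.486%. Ccr2, the receptor that brings monocytes into tissue, was found in 1 of 76, 10 of 66 and 1 of 16 members (1.32%, 15.2% and 6.25%). It was found in 4.01%, 10.6% and 5.11% of the others, and in 0.158%, 0.899% and 0.0608% of cardiomyocyte-rich nuclei. A UMI of Lyve1, Timd4 or Folr2, genes of resident macrophages, was held by 30.3%, 18.2% and 25% of members and by 21.5%, 18.8% and 12.2% of others. UMIs of both Cd163 and Ccr2 were held by 1 member, in Sham-NS. Plasmacytoid dendritic cells, which also express Irf7, have Siglech as a marker. It had 0, 0 and 2 UMIs in members and 8, 9 and 7 in others. The 12-gene list of that cell summed to 1101, 1508 and 1497 CPM in members against 1039, 1196 and 1284 in others. Kept nuclei without a macrophage-rule UMI had 700, 876 and 664 CPM of it, so its UMIs were not confined to macrophage-gated nuclei. The part of plasmacytoid dendritic cells in the result was not tested.

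The question of infarction and treatment was put to all macrophage-gated nuclei first, since no interferon gene chose these. Their level of the 112 interferon genes was 17391 CPM in Sham-NS, 14854 in MI-NS, and it was 12671 in MI-DAPA. The log2 ratio was -0.23 (-0.27 to -0.19) for MI-NS over Sham-NS and -0.23 (-0.29 to -0.17) for MI-DAPA over MI-NS. The sham library thus had the highest summed interferon level in macrophages, and MI-DAPA the lowest. The depth of these nuclei, their fibroblast, endothelial and cardiomyocyte marker levels and the animals differed along with the groups. These differences cannot be told apart from the groups.

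Within members the same list had a log2 ratio of -0.10 (-0.19 to -0.01) for MI-NS over Sham-NS and 0.25 (0.09 to 0.41) for MI-DAPA over MI-NS. Neither direction held under every setting. With nuclei at 600 UMIs the values were 0.04 and -0.32, and with TMM scaling the second was -0.41, while at 1000 UMIs they were -0.19 and 0.36. Of all genes with 20 UMIs over both libraries, 7.24% were 2-fold or more higher and 10.2% lower in MI-NS over Sham-NS members, and 12.2% and 10.8% in MI-DAPA over MI-NS members. Of the interferon genes, 4 of 57 were that much higher and 6 lower in the former comparison, and 2 of 30 and 2 of 30 in the latter.

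The GTPases were lower in MI-NS members than in Sham-NS members, at 1936 against 3236 CPM (log2 ratio -0.74, -1.06 to -0.43), and in the others the ratio was -0.55. Stat2 had a log2 ratio of 0.41 in members and -0.83 in others for the same libraries. Class II genes had 1008 CPM in Sham-NS members, 2054 in MI-NS and 1025 in MI-DAPA. The log2 ratios were 1.03 (0.61 to 1.45) and -1.0 (-1.95 to -0.18), beside 0.68 and -0.85 in the other macrophage nuclei. Class I genes had 0.64 (0.43 to 0.86) and -0.50 (-0.93 to -0.10), beside 0.34 and -0.51. Both presentation programmes were therefore higher in the MI-NS library in members and others alike.

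Among single genes, Ccr2 had 1 UMI in Sham-NS members and 22 in MI-NS members, a log2 ratio of 4.06, while the others gave 1.26. Cd163 had 72 and 25 UMIs, a log2 ratio of -1.35 (-2.09 to -0.70) beside -1.61 in the others. The matrix genes Col3a1 (1 and 30 UMIs, log2 ratio 4.50), Bgn (1 and 20, 3.93) and Col1a2 (4 and 36, 3.18) were also among the 5 highest, with 3.44, 1.55 and 2.42 in the others. The fifth, the complement gene C6, had 2 and 19 UMIs. These matrix genes are fibroblast products, and the fibroblast markers outside the rule summed to 928 CPM in Sham-NS and 2468 in MI-NS members. Their part in the result was not tested.

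At the low end stood genes of the circadian clock. Per2 had 27 UMIs in Sham-NS members and 0 in MI-NS members, at least 8.08-fold lower against a floor of 3 UMIs, and Dbp had 26 and 1. In the others the log2 ratios were -3.75 for Per2 and -2.23 for Dbp. The 14 clock genes had -1.71 (-2.22 to -1.23) in members and -1.62 in others. Both genes are known to cycle over the day in most tissues. Abcc9, a channel subunit of pericytes and muscle, had 19 UMIs against 1, Cbfa2t3 had 21 against 2, and Plcb4 had 32 against 4.

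For MI-DAPA over MI-NS members, the 5 lowest genes all had 0 UMIs in the 16 MI-DAPA members. Grn, which encodes the lysosomal protein progranulin, had 60 in MI-NS and was at least 3.75-fold lower. Tent5a had 34, Hsp90b1 27, Ppp3ca 23 and Rbms1 22 UMIs in MI-NS members, which puts them at least 2.13-, 1.69-, 1.44- and 1.38-fold lower. These bounds rest on only 16 MI-DAPA members. In the others the log2 ratio was -0.71 for Grn and 0.27 for Hsp90b1. Of the genes named in this paragraph, the ratio in the others is given for Grn, Hsp90b1 and Naip5 only. Whether the remaining differences were particular to members is not shown. The highest were Fam193a (14 UMIs in MI-DAPA and 18 in MI-NS, log2 ratio 2.06), Eea1 (9 and 13, 1.91), Bdp1 (11 and 16, 1.89), Naip5 (13 and 20, 1.81) and Usp34 (11 and 17, 1.81). Naip5 encodes a sensor of bacterial flagellin, and its ratio in the others was 0.25.

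**Figure D5:**
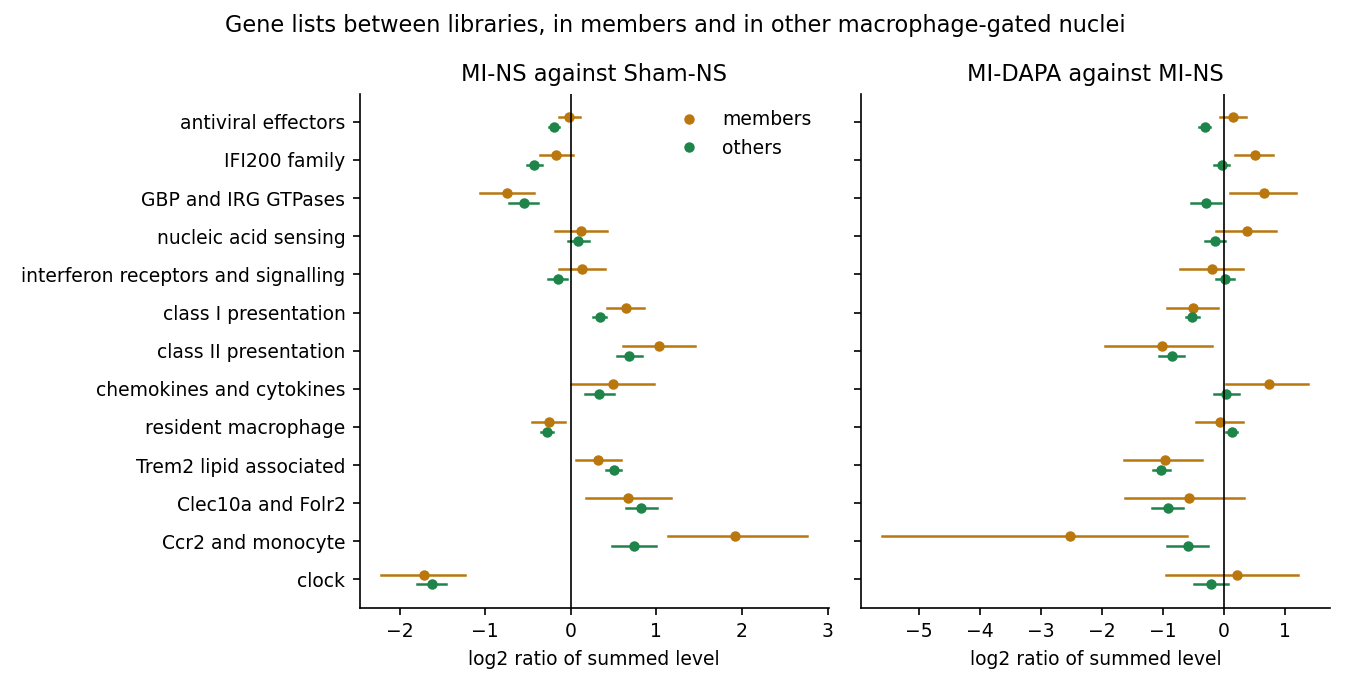
Summed log2 ratio between libraries (x axis) for gene lists in members and in other macrophage nuclei, with 95% counting intervals, for MI-NS over Sham-NS and MI-DAPA over MI-NS. Class I and class II genes were higher in MI-NS in both kinds of nuclei, and the antiviral effectors had -0.018 and 0.15 in members beside -0.20 and -0.31 in others.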

How the data were processed

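The authors deposited matrices of UMI counts, made with Cell Ranger 6.0.1 per the file headers. Per the submitters' processing notes the build was mm10 and Seurat was used, in a role that is not stated. Intronic counting, strand and the treatment of multi-mapping reads are not given in the sources used here. Nuclei were chosen by the rule given above and no doublet caller was run. Levels are sums of UMIs over the members or the others of a library, divided by all UMIs of those nuclei and scaled to 1000000 (CPM). Log2 ratios add 0.5 UMI for single genes. Intervals (95%) are exact Poisson for levels, Clopper-Pearson for shares, conditional binomial for ratios of sums and the log method for ratios of shares.

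Gene lists, members and tests were chosen with earlier results of these data known. Named genes were the rule genes, up to 4 measurable genes of a list with the largest mean log2 ratio, and the 10 highest and 5 lowest genes of a contrast. For members against others a gene had to be 2-fold in the same direction in each library with UMIs in at least 5 members. Other genes were named for their known function, and genes 11 to 20 of that order were named after their values were seen. Measurable meant at least 5 expected UMIs in members of a library, 10 over all libraries, or 20 UMIs between libraries. Of the 5 genes lower in each library, 2 met the limit on members.

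A gene of the marker and leading lists is not reported here by name and was left out of the marker shares. Coordinates came from GENCODE M21 and promoters from RefSeq. Python 3.11.15 with numpy 2.4.6, scipy 1.17.1 and pandas 2.3.3 was used, and edgeR 4.0.16 in R 4.3.3 for TMM factors only. The calculations were tested on simulated sums drawn without variation between nuclei, so that check does not cover UMIs that cluster in few nuclei. Alternatives covered thresholds of the rule, each rule gene left out, nuclei with markers of other cells left out, thinning, the added count, scaling and the measurable limit.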

Additional observations from a re-analysis of the deposited data

Results flagged for a closer look

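Markers of pericytes and smooth muscle lay on opposite sides of the other macrophage nuclei in different libraries, and this difference was not tested. Their summed log2 ratio of members over others was 0.76 in Sham-NS but -1.26 in MI-NS, with -2.89 in MI-DAPA. The members held 63, 12 and 1 UMIs of the 10 genes. In Sham-NS, 5 of 76 members held 48 of the 63 UMIs.

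Cell cycle genes also changed side between libraries, again without a test of the difference. The log2 ratio was -1.56 in Sham-NS but 0.91 in MI-NS, with -2.05 in MI-DAPA. In MI-NS, 3 of 66 members held 62 of the 72 UMIs, 37 of them in 1 nucleus, and Mki67 had 19 UMIs in MI-NS members and 0 in the members of the other libraries.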

How the results depend on the processing

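No paired analysis was possible because each group had 1 library. The member share was lower in MI-DAPA than in MI-NS under 20 of 20 alternatives, with an interval below 0 in 18, and ranged from -1.86 (log2) at 1000 UMIs to -0.48 at 600 UMIs. MI-NS over Sham-NS stayed between 0.07 and 0.49 with no interval clear of 0. For the 112 interferon genes, members over others kept its direction under 25 of 25 alternatives in each library. Each alternative still chose members on co-induced interferon genes, so nothing is read from this count. The values that moved by more than the counting interval, in the order Sham-NS, MI-NS and MI-DAPA, were 0.51, 0.54 and 0.80 with 1 rule UMI, 1.13, 1.15 and 1.59 with 3, and 1.03, 1.34 and 1.18 at 600 UMIs. They were 0.64, 0.83 and 0.65 with TMM and 0.96, 1.08 and 1.65 without Oasl2. Sham-NS also gave 1.04 with UMIs of 2 rule genes, 0.92 without nuclei holding 2 UMIs of other cell types, and 0.89 without Ifit2 and without Irf7. Nuclei of 500 genes gave 0.91 in Sham-NS and 1.26 in MI-DAPA. Antiviral effectors alone gave 0.92 in Sham-NS and 1.09 in MI-NS.

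Within members, MI-NS over Sham-NS was -0.24 with 1 UMI, with 3 and with 2 genes, and reversed to 0.043 at 600 UMIs. MI-DAPA over MI-NS was 0.066 with 1 UMI, 0.089 at 500 genes and 0.072 when centred on all genes, and reversed to -0.32 at 600 UMIs and -0.41 with TMM, whose factors shifted this ratio by 0.66. In all macrophage-gated nuclei, MI-NS over Sham-NS was -0.17 without nuclei of other cell types, -0.34 centred, -0.37 with TMM and -0.14 for antiviral effectors. MI-DAPA over MI-NS was -0.31 without nuclei of other cell types and -0.37 for antiviral effectors. The cell cycle ratio in MI-NS reversed to -0.017 without nuclei of other cell types, -0.78 without Irf7 and -1.77 at 600 UMIs. The cause of these changes was not tested. For the 22 genes named for 1 direction in each library, the mean log2 ratio of the 3 libraries kept its direction in 506 of 506 alternatives. The direction within each library was not checked there. The genes were chosen for that direction in these nuclei, so nothing is read from this count. Of 619 alternatives for 27 list ratios, 566 kept the direction, and 3 of the others reversed a called value.

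Counts of 2-fold genes depended on the UMI limit. With the limit doubled and with none, members over others gave 21 and 3987 higher genes in Sham-NS (115 as reported), 20 and 4115 in MI-NS (114), and 1 and 7011 in MI-DAPA (15). Lower genes were 37 and 1441 (163), 23 and 1562 (142), and 5 and 642 (23). Requiring the interval to exclude 0 left 69, 55 and 6 lower genes, and adding 1 UMI left 102 in Sham-NS and 11 in MI-DAPA. Between members, MI-NS over Sham-NS gave 26 and 3263 higher (104) and 34 and 2603 lower (146), and with the interval 68 and 92. MI-DAPA over MI-NS gave 21 and 2407 higher (78) and 19 and 1149 lower (69), and with the interval 40 and 22. With 16 members and 12688 UMIs, MI-DAPA sets the depth limit of every 3-library statement.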
